A study of Caenorhabditis elegans with 12 samples.

Results

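RNA recovered by immunoprecipitation (IP) of tagged LIN-41 was compared with the RNA of the lysate it was taken from. The comparison used 3 pairs of an IP library and an input library that carry the same replicate number. These are 6 of the 12 libraries of a RIP-seq series, in which RNA is sequenced after it is co-immunoprecipitated with a protein. Of the 20182 genes in the count table, 11233 (55.7%) had at least 10 counts in at least 3 of the 6 libraries and were tested. The LIN-41 worms carried the mutant alleles lin-41(n2914) and him-5(e1490) and the transgene xeSi197, in which Plin-41, the promoter of lin-41, drives the fusion flag-gfp-lin-41 ahead of the lin-41 3'UTR. The control worms carried him-5(e1490) and the transgene xeSi55, in which Pdpy-30, the promoter of the broadly expressed gene dpy-30, drives the fusion sart-3-gfp-his-flag ahead of the 3'UTR of xrn-2. SART-3 is a splicing factor of the nucleus. No lin-41 allele is listed for them. The him-5 mutation, which both strains carried, raises the share of males. Whole worms of mixed L3 and L4 stages, grown for about 30 h at 25 °C, were lysed, and for each condition 5 anti-FLAG IPs were run in parallel.

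LIN-41 is an RNA-binding protein of the TRIM-NHL family and the main target of the let-7 miRNA in the worm. It silences mRNAs of transcription regulators while larval cells still divide, and its own silencing by let-7 lets the animal become adult. In the epidermis the regulators LIN-29 and MAB-10 end the divisions of the seam cells, and in the male tail MAB-3 and DMD-3 drive the reshaping of the tail tip.

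The LIN-41 IP libraries held 291466, 389151 and 404046 counts, and the LIN-41 inputs held 2024430, 859814 and 993849. A gene with 3 counts therefore stood at 8.09 to 13.8 normalized CPM in the IPs and at 1.37 to 3.23 CPM in the inputs, where a library's size is its total count times its TMM factor. Inputs and IPs were sequenced in different lanes, so lane and library type cannot be told apart. Replicate 1 stood apart from replicates 2 and 3 in both library types: the chi-square per degree of freedom over genes was 5.02 and 5.66 against 1.62 in the IPs, and 12.4 and 15.1 against 1.94 in the inputs. Its input also differed in some markers of cuticle and sperm, picked after their values were seen. The cuticle collagen bli-1 had 49 CPM in input 1, against 101 and 197 CPM in inputs 2 and 3, and the major sperm protein gene msp-64 had 7.33 CPM in input 1, against 28.0 and 38.1. Scaled by total counts, rol-6 (279, 634 and 505 CPM) and gsp-3 (52.4, 97.7 and 150) went the same way. The oocyte gene rme-2 was highest in input 1 (79.0, 50.0 and 51.3), and oma-1 was level (28.7, 23.3 and 33.2). A difference in stage was not tested. Markers of muscle, neurons, intestine, epidermis, sperm, oocytes and germline were all detected in the inputs. In whole worms, few cells of a type and little RNA per cell cannot be told apart.

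Relative to its input, the LIN-41 IP was higher for 597 genes (5.31% of the genes tested) and lower for 354 genes (3.15%) at an adjusted p under 0.05 in edgeR's quasi-likelihood test with the replicate number as a block. A change of at least 2-fold was present in 482 of the higher genes (4.29%) and in 298 of the lower genes (2.65%). All 3 pairs had the sign of the fitted value in 592 of 597 higher and in 354 of 354 lower genes, and the groups did not overlap in 515 higher and 280 lower genes. These counts were taken among the called genes only, and the same shares over all genes tested were not counted. They follow in part from the calls and add no separate support for them. Few changes were large: 39 genes were at least 4-fold higher and 48 at least 4-fold lower. Low counts bear on the lower side, where 161 of 354 genes had no IP library with 10 counts, although none was at 0 in all 3 IPs. Such genes passed the filter through the inputs alone, where they are high. They were 1859 of the 11233 genes tested, while 0 genes passed through the IPs alone, so the filter favors calls on the lower side. The number of calls depended on the replicates. It was 1203 higher and 645 lower without replicate 1, 296 and 187 without replicate 2, and 109 and 51 without replicate 3.

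**Figure D1:**
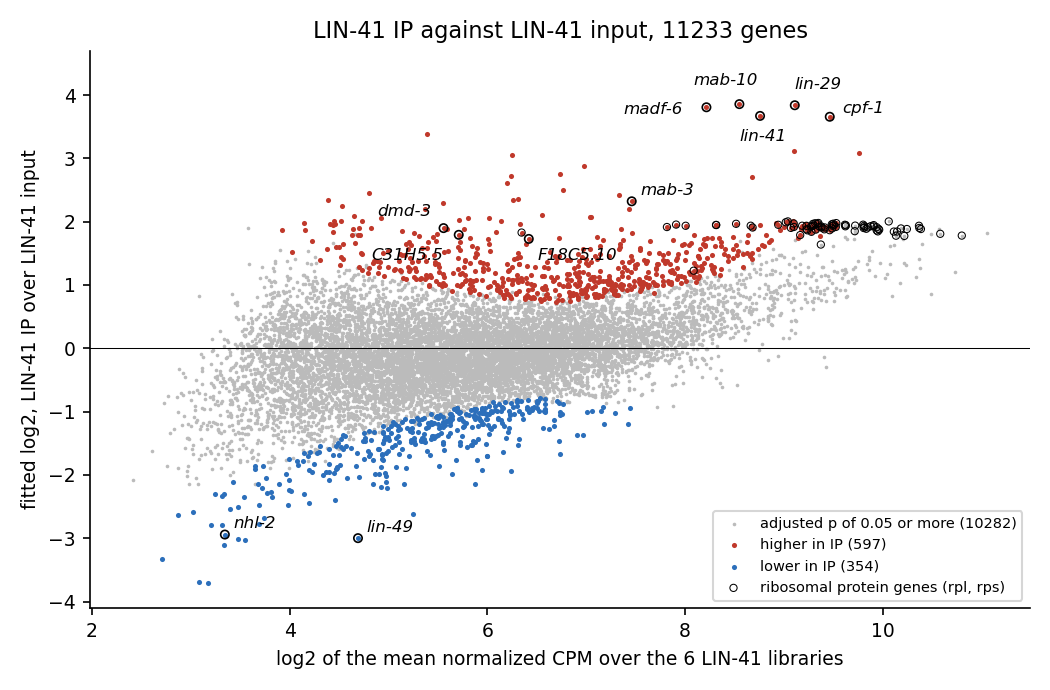
Fitted log2 of LIN-41 IP over LIN-41 input (y axis) against the log2 of the mean normalized CPM over the 6 libraries (x axis), 1 point per gene. The mRNAs of lin-41, lin-29, mab-10, madf-6 and cpf-1 lie at the top between 3.66 and 3.86, and the ribosomal protein genes (open circles) form a narrow band around 1.92.

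The mRNAs of mab-10, lin-29 and lin-41 itself, of the LIN-41 pathway, were 3 of the 5 with the largest fitted values, and madf-6 and cpf-1 were the others. The values below are normalized CPM for replicates 1, 2 and 3 in that order, followed by the fitted log2 with its standard error. The 7 mRNAs described first had been selected as LIN-41-bound from these same libraries, so that their direction here is not independent evidence. All 7 were higher in the IP, with a median log2 of 2.32, against -0.06 over all genes tested.

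lin-29 (chromosome II, 11917642 to 11935343, minus strand, in the WBcel235 annotation) encodes a zinc finger transcription factor of the EGR type that brings the epidermis to its adult state. It had 2179, 505 and 450 CPM in the LIN-41 IPs, against 77.4, 64.5 and 35.4 CPM in the inputs. Every IP exceeded every input, and IP 1 was far above the other IPs. The fitted log2 was 3.84 ± 0.55 (SE, adjusted p = 2.8e-04), or 14.3-fold, with log2 values of 4.77, 2.92 and 3.59 in the 3 pairs. The counts are per gene, so the a and b transcripts of lin-29 share these values.

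mab-10 (chromosome II, 10528084 to 10534380, plus strand) encodes the NAB-type cofactor of LIN-29. Its levels were 1387, 331 and 399 CPM in the LIN-41 IPs, against 65.0, 38.7 and 25.4 CPM in the inputs, again with IP 1 highest and no overlap. The fitted log2 was 3.86 ± 0.43 (adjusted p = 9.3e-06), the largest positive value of the comparison, and the pairs gave 4.37, 3.02 and 3.86.

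mab-3 (chromosome II, 9732137 to 9738035, plus strand) encodes a DM domain transcription factor of male development. It had 244, 315 and 321 CPM in the LIN-41 IPs, against 53.6, 48.4 and 74.3 CPM in the inputs. The spread between libraries was small beside the gap between the groups, and the means were 293 ± 43 CPM in the IPs and 58.8 ± 14 CPM in the inputs (SD, n = 3 each). The fitted log2 was 2.32 ± 0.26 (adjusted p = 1.0e-05), or 5.0-fold.

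dmd-3 (chromosome V, 19650025 to 19655251, minus strand) encodes the DM domain partner of MAB-3 in the male tail tip. Its levels were lower, with 87.5, 73.3 and 62.0 CPM in the LIN-41 IPs, against 19.7, 23.7 and 16.3 CPM in the inputs, which rest on 19 to 27 counts per IP library. The groups did not overlap, and the fitted log2 was 1.90 ± 0.30 (adjusted p = 7.2e-04).

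lin-41 (chromosome I, 9334800 to 9342496, minus strand) had 2031, 179 and 216 CPM in the LIN-41 IPs, against 135, 20.4 and 14.5 CPM in the inputs. IP and input of replicate 1 were both the highest of their group, and each IP was above each input. The fitted log2 was 3.67 ± 0.46 (adjusted p = 4.2e-05), with 3.89, 2.99 and 3.70 in the pairs. In this strain, reads from the tagged transgene and from the mutant lin-41 gene fall on the same gene and cannot be told apart. For its lin-41 signal the paper proposes either autoregulation or capture of nascent tagged protein together with its own mRNA, which was not tested here.

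The roles of F18C5.10 and C31H5.5 are not described in the sources used here. F18C5.10 (chromosome II, 6559722 to 6561444, minus strand) had 295, 46.1 and 59.3 CPM in the LIN-41 IPs, against 72.8, 25.8 and 14.5 CPM in the inputs. The groups overlapped, since input 1 exceeded IPs 2 and 3, but the IP was higher within each pair, and the fitted log2 was 1.73 ± 0.27 (adjusted p = 6.5e-04). C31H5.5 (chromosome I, 9048188 to 9049349, minus strand) had 87.5, 51.6 and 105 CPM in the LIN-41 IPs, against 28.9, 19.4 and 21.8 CPM in the inputs, with no overlap and a fitted log2 of 1.79 ± 0.29 (adjusted p = 9.4e-04). The 7 mRNAs together made up 0.470, 0.142 and 0.148% of all counts in the LIN-41 IPs, against 0.0488, 0.0261 and 0.0224% in the inputs. Without replicate 1 or without replicate 2 all 7 remained past the threshold. Without replicate 3, lin-29, lin-41 and C31H5.5 had adjusted p of 0.15, 0.12 and 0.058, at log2 values of 3.91, 3.56 and 1.51.

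**Figure D2:**
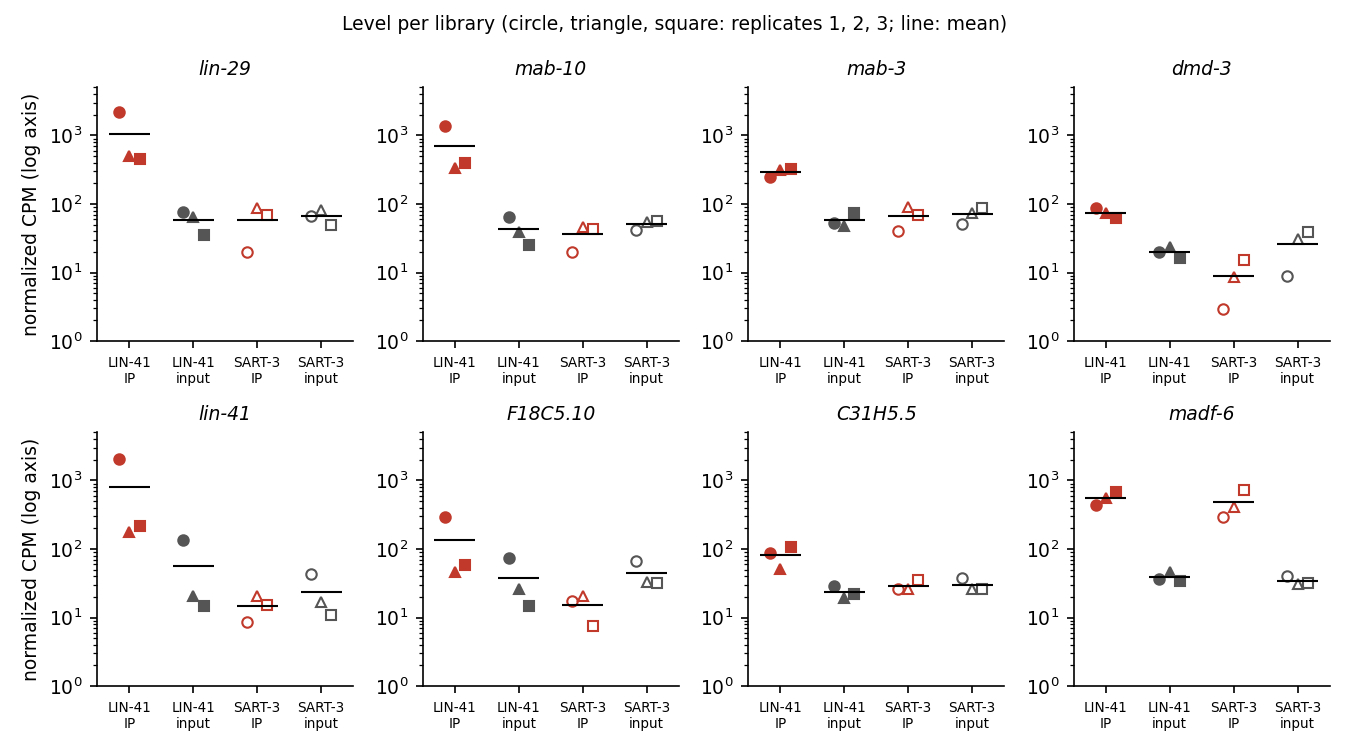
Normalized CPM (log axis) per library for 7 mRNAs selected as LIN-41-bound and for madf-6, in the LIN-41 IP, LIN-41 input, SART-3 IP and SART-3 input (circle, triangle and square for replicates 1, 2 and 3, line for the mean). The LIN-41 IPs of mab-3 lie between 244 and 321 CPM, above all 3 of its inputs, while madf-6 is high in the LIN-41 IPs (438 to 674 CPM) and in the SART-3 IPs (292 to 722 CPM) alike. Each strain was scaled in its own fit.

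Other strongly enriched mRNAs encode proteins outside the let-7 pathway. madf-6, which encodes a MADF domain protein, had 438, 554 and 674 CPM in the LIN-41 IPs, against 36.6, 46.3 and 34.4 CPM in the inputs, a fitted log2 of 3.81 ± 0.37 (adjusted p = 1.3e-06). cpf-1, whose product is a subunit of the pre-mRNA cleavage and polyadenylation machinery, had 1041, 1379 and 1502 CPM in the LIN-41 IPs, against 85.6, 113 and 111 CPM in the inputs, a fitted log2 of 3.66 ± 0.58 (adjusted p = 7.0e-04). In both genes every IP was far above every input. C45B2.8 (3.39), F40A3.6 (3.11), the carbonic anhydrase gene cah-4 (3.09), ZK54.3 (3.05), Y41E3.6 (2.89) and scbp-2 (2.75) followed on the log2 scale. Of the 15 genes of lowest p, all but mab-10 and mab-3 had a coding length of at most 828 bp.

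On the lower side the leading genes encode proteins of many functions. F47G9.4 had 9.21, 16.3 and 5.39 CPM in the LIN-41 IPs, against 74.2, 64.5 and 58.0 CPM in the inputs, a log2 of -2.62 ± 0.40 (adjusted p = 5.6e-04). hgrs-1, encoding an ESCRT-0 protein of endosomal sorting, had 13.8, 32.6 and 40.5 CPM in the LIN-41 IPs, against 150.2, 119.4 and 96.1 CPM in the inputs (log2 -1.94 ± 0.31). The chromodomain gene cec-1 had 27.64, 27.14 and 26.97 CPM in the LIN-41 IPs, against 76.5, 104.3 and 93.4 CPM in the inputs (log2 -1.76 ± 0.29). The groups did not overlap in any of these, but their IP values rest on few counts. In the LIN-41 IPs F47G9.4 had 2, 6 and 2 counts, hgrs-1 had 3, 12 and 15, and cec-1 had 6, 10 and 10. Larger fitted values rest on still fewer reads. lin-49, for a bromodomain protein, had 0, 2 and 3 counts in the LIN-41 IPs, against 167, 26 and 41 counts in the inputs (log2 -3.0 ± 0.55). nhl-2, which encodes a TRIM-NHL relative of LIN-41 that works with the miRNA machinery, had 1, 1 and 0 counts in the LIN-41 IPs, against 50, 16 and 15 counts in the inputs (log2 -2.94 ± 0.75, adjusted p = 0.020). sart-3 itself was lower in the LIN-41 IP as well, with 27.6, 40.7 and 32.4 CPM, against 86.1, 65.6 and 58.0 CPM in the inputs (log2 -0.99 ± 0.30, adjusted p = 0.041). This call was lost under 7 of 18 alternatives. By the same test sart-3 was also lower in the SART-3 IP than in its input (log2 -0.49 ± 0.18, adjusted p = 0.023).

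To see which enrichments belonged to LIN-41, the same comparison was made for the SART-3 IP and its own input. Of 11865 genes tested there, 2278 (19.2%) were higher and 1818 (15.3%) lower in the SART-3 IP. The biological coefficient of variation was 0.0849 in the SART-3 fit and 0.209 in the LIN-41 fit, so the tests differ in what they can call. Of the 590 genes higher in the LIN-41 IP that were tested in both, 552 were also higher with SART-3, which is 93.6% of the LIN-41 list and 24.7% of the 2239 SART-3 genes. Of the 348 lower genes, 294 were also lower with SART-3 (84.5% of the LIN-41 list, 17.7% of the 1658 SART-3 genes). The median log2 of the 590 higher genes was 1.28 in the LIN-41 IP and 1.17 in the SART-3 IP, and that of the 348 lower genes was -1.33 in the LIN-41 IP and -1.0 in the SART-3 IP. Across the 10838 genes tested in both IPs the fitted values had a Pearson r of 0.828, and 0.668, 0.503 and 0.658 between pairs of the same number. These points share gene length and abundance, the lanes and the bead protocol, and genes are not independent replicates.

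The other strongly enriched mRNAs were high with both proteins. madf-6 had a log2 of 3.81 with LIN-41 and 3.76 with SART-3, and cpf-1 had 3.66 with LIN-41 and 3.53 with SART-3. The gap was wider for C45B2.8, at 3.39 with LIN-41 and 2.65 with SART-3, and for F40A3.6, at 3.11 with LIN-41 and 2.74 with SART-3, and scbp-2 was lower with LIN-41 (2.75) than with SART-3 (3.08). None of these 5 differed between the proteins past the threshold (adjusted p = 1 for each in the fit of all 12 libraries). Of the 39 genes at least 4-fold higher in the LIN-41 IP, 34 were called and at least 2-fold higher with SART-3, where 6.08% of all genes were. The other 5 are lin-41, mab-10, lin-29, mab-3 and T23G5.3, which were not called with SART-3. T23G5.3 had a log2 of 2.01 with LIN-41 and 0.89 with SART-3.

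**Figure D3:**
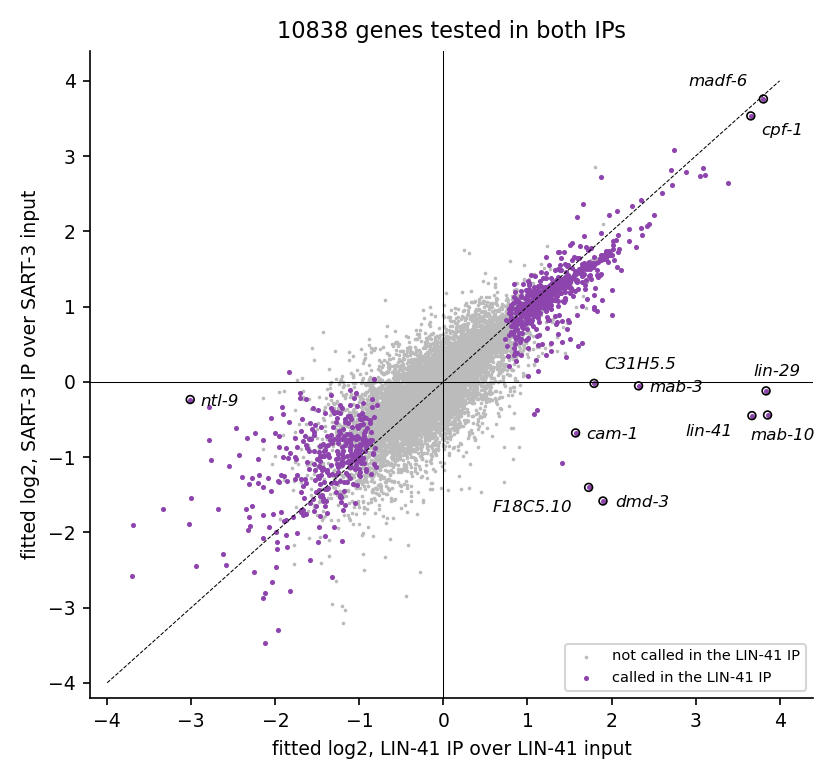
Fitted log2 of IP over input for SART-3 (y axis) against LIN-41 (x axis) for the 10838 genes tested in both, with genes called in the LIN-41 IP in purple and the line of equal values dashed. Most called genes follow the line, madf-6 and cpf-1 included, while lin-29, mab-10, lin-41, mab-3, dmd-3, F18C5.10, C31H5.5 and cam-1 lie right of it at or below 0 for SART-3.

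A group of 11 genes was higher in the LIN-41 IP with a SART-3 value at or below 0. They are the 7 mRNAs above with cam-1, glit-1, flh-2 and K11D2.4, and they were picked out after their values were seen. Their median coding length was 1380 bp (480 to 3444), against 1152 bp over all genes tested and 424.5 bp in the 552 genes higher in both IPs. Both groups were chosen by the SART-3 ratio, which itself fell with length (Spearman rho = -0.490). The gap in length between them therefore follows in part from that choice. The difference of the IP-to-input ratios (LIN-41 minus SART-3) was tested over 12942 genes in 1 fit of all 12 libraries. 5 genes (0.0386%) were higher for LIN-41, namely mab-10 (difference of 4.34, adjusted p = 0.0014), lin-41 (4.06, 0.021), lin-29 (4.05, 0.014), F18C5.10 (3.14, 0.014) and mab-3 (2.34, 0.0012). No gene was lower, where 145 had an unadjusted p under 0.05, DESeq2 and limma-voom also called 0, and 120 were higher at that level. The difference for dmd-3 was 3.33 ± 0.63 and missed the threshold (adjusted p = 0.073), as did that for C31H5.5 at 1.83 ± 0.40 (adjusted p = 0.30), although both were positive in 3 of 3 replicates. These calls depended on the test and on the block. The likelihood ratio test, which the study's methods name for this difference, called both (adjusted p = 2.7e-04 for dmd-3 and 0.018 for C31H5.5) beside the other 5. DESeq2 called 4 genes, namely mab-10, mab-3, F18C5.10 and dmd-3 (adjusted p = 0.015), and neither lin-29 (0.11) nor lin-41 (0.77). The replicate term of the main fit was shared by both proteins, so an IP was not blocked with its own lysate input alone. With a block per lysate 7 genes passed, the 5 and dmd-3 (3.49, adjusted p = 2.5e-04) among them, but not C31H5.5. Over all alternatives the adjusted p was 2.5e-07 to 1 for dmd-3 and 0.018 to 1 for C31H5.5. The SART-3 values of dmd-3 rest on few counts, at 2.89, 8.64 and 15.2 CPM in the SART-3 IPs, against 8.93, 31.3 and 38.6 CPM in the SART-3 inputs.

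mab-3 showed the most even difference between the proteins, with 2.54, 2.32 and 2.39 in replicates 1, 2 and 3. It had 40.5, 89.9 and 68.2 CPM in the SART-3 IPs, against 50.6, 72.6 and 88.0 CPM in the SART-3 inputs, so that these groups overlapped (log2 -0.05). lin-29 also overlapped there, at 20.2, 88.2 and 68.2 CPM in the SART-3 IPs, against 66.2, 82.6 and 49.5 CPM in the SART-3 inputs (log2 -0.12). Its difference between the proteins was 6.48 in replicate 1, against 2.8 and 3.1 in replicates 2 and 3. Without replicate 3 none of the 5 genes passed, and without replicate 1 all 5 passed among 9 genes called.

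cam-1, which encodes a ROR receptor tyrosine kinase that binds Wnt ligands, had 465, 84.1 and 35.1 CPM in the LIN-41 IPs, against 117, 31.2 and 20.8 CPM in the inputs. The groups overlapped, but the IP was higher within each pair, and the fitted log2 was 1.57 ± 0.27 (adjusted p = 0.0013), against -0.68 for SART-3. The difference of 2.32 between the proteins did not pass (adjusted p = 0.60). On the lower side, ntl-9, for a subunit of the CCR4-NOT deadenylase complex, had a log2 of -3.01 with LIN-41 and -0.24 with SART-3, but with 1, 1 and 0 counts in the LIN-41 IPs the difference of -2.89 had an adjusted p of 1.

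The called genes differed in length. The median coding length was 438 bp in the higher genes and 2058 bp in the lower genes, against 1152 bp over all genes tested. The higher calls were 23.02% of 1516 genes under 500 bp, 5.74% of 3137 genes of 500 to under 1000 bp and at most 1.33% of genes in each longer class, whereas the lower calls were 0.132% of the shortest class and 13.1% of the 61 genes of 8000 bp or more. The median log2 was 0.45 in the shortest class and -0.55 in the longest. Pair 1 had the steepest relation, with a Spearman rho of -0.512 across genes, against -0.236 and -0.256 in pairs 2 and 3. The SART-3 IP had a similar relation (rho = -0.490). With offsets for length, 623 genes were higher and 358 lower, of which 377 and 195 were called without them. All 7 mRNAs of the LIN-41 group remained called with these offsets, at log2 values of 1.5 (C31H5.5) to 4.22 (lin-41).

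**Figure D4:**
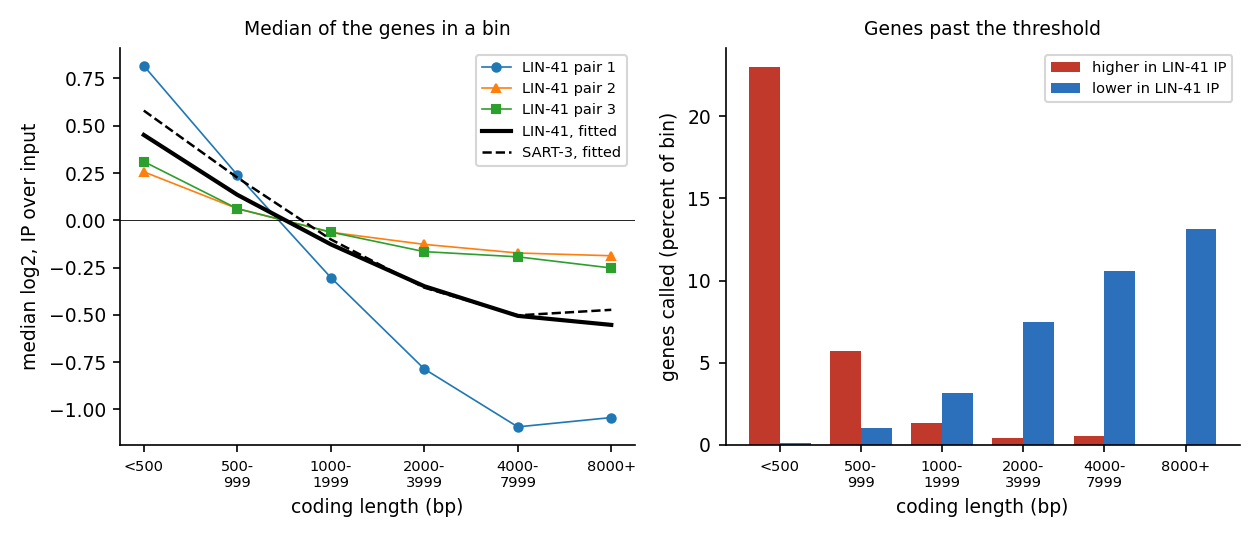
Left, median log2 of IP over input by class of coding length, for each LIN-41 pair and for the LIN-41 and SART-3 fits; the fitted LIN-41 median is 0.45 in the shortest class and -0.55 in the longest. Right, share of the genes in a class that were higher (23.02% in the shortest) or lower (13.1% in the longest) in the LIN-41 IP.

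Reads with the same 5′ end had been collapsed into 1, so that the counts a gene can reach are bounded by its length. The highest value was 0.932 counts per bp of coding length, and 464 tested genes exceeded 0.5 in at least 1 of the 6 libraries. Of these 464 genes 173 (37.3%) were higher in the LIN-41 IP, with a median log2 of 1.17. When they were left out and the rest fitted again, 547 genes were higher and 295 lower, of which 424 and 295 were called before. Among sparsely covered genes with at most 0.1 counts per bp the median log2 was 0.16 under 500 bp (252 genes) and -0.57 at 8000 bp or more (56 genes). This division by coverage was added after the data were seen. The part of the collapsing in the relation to length was not tested.

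Among gene groups, the cytosolic ribosomal protein genes had the highest median after the LIN-41 group (of the lists with at least 4 genes tested). Of 77 tested, 44 were higher in the LIN-41 IP and 0 lower, against 5.31% higher and 3.15% lower among all genes. Their median log2 was 1.92, with an SD over genes of 0.10, and their median coding length was 456 bp. Their raw counts were close between IP and input. rpl-36 had 237, 247 and 263 counts in the LIN-41 IPs, against 265, 259 and 262 counts in the inputs, over a coding length of 315 bp, and the group's median coverage was 0.721, 0.761 and 0.761 counts per bp in the IPs, against 0.868, 0.822 and 0.814 in the inputs. A gene with equal counts in IP and input would have a log2 of 3.33, 1.34 and 1.57 in pairs 1, 2 and 3 from library size alone, and the medians of the ribosomal protein genes were 3.06, 1.22 and 1.48. A correction of the counts for this ceiling gave a median of 1.77 with 17 genes called, and leaving out replicate 1 gave 1.33 with 77 called. Length offsets gave a median of 1.61, with only 9 higher and 0 lower. With SART-3 the median was 1.68 and 77 of 77 were higher.

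The nuclear-encoded genes of the respiratory chain (11 higher, 0 lower of 44, against 5.31% higher among all genes, median 0.80) had a median coding length of 654 bp. Without replicate 1, 25 were higher (median 0.51), and with length offsets 3 were. In the SART-3 IP 38 of 44 were higher and 0 lower (median 0.84). cyc-2.1, for cytochrome c, had 1078, 665 and 672 CPM in the LIN-41 IPs, against 125, 294 and 238 CPM in the inputs. Collagen genes of the col family, which build the cuticle, had 24 higher and 0 lower of 111 and a median of 0.96. Their coverage was far lower than that of the ribosomal protein genes, with medians of 0.0662, 0.0358 and 0.0460 counts per bp in the IPs, against 0.222, 0.0887 and 0.100 in the inputs. col-93 had 221, 138 and 127 CPM in the LIN-41 IPs, against 28.4, 66.7 and 53.5 CPM in the inputs, with no overlap (log2 1.74 ± 0.29). The col genes were highest in pair 1, with medians of 1.77, 0.39 and 0.59 in the 3 pairs. In the SART-3 IP 87 of 111 were higher and 1 lower (median 0.88). With length offsets 39 were higher and 1 lower in the LIN-41 IP (median 0.96). Neuropeptide genes had 19 higher and 1 lower of 89 (median 0.54). The FMRFamide-like peptide gene flp-8 had 318, 258 and 245 CPM in the LIN-41 IPs, against 61.4, 92.5 and 79.8 CPM in the inputs (log2 1.82 ± 0.27), and the insulin-like gene ins-5 was lower (-2.55 ± 0.68). These neuropeptide genes had a median coding length of 291 bp, and with length offsets their median was 0.04. In the SART-3 IP 46 of 102 were higher and 0 lower (median 0.53). On the lower side, where edgeR called 0 ribosomal protein, respiratory chain and col genes, an unadjusted p under 0.05 was reached by 0, 0 and 3 of them, and DESeq2 called 0.

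Of 17 histone genes 3 were higher and 0 lower (median 0.68), led by his-35, a histone H2A gene (log2 1.17 ± 0.36). These genes are short, at a median coding length of 384 bp, and 0 were higher with length offsets (1 lower, median 0.33), with the ceiling correction or with DESeq2. In the proteasome (31 genes, median 0.31), the chaperones (23, median 0.30) and the aminoacyl-tRNA synthetases (32, median 0.13) there were 0 calls in either direction by edgeR's test, and 2, 2 and 2 genes had an unadjusted p under 0.05. DESeq2 called 1 chaperone gene and 0 genes of the other groups. Other housekeeping groups had a few calls each, to be read beside the 5.31% higher and 3.15% lower among all genes. Of 41 translation factors 3 were higher, namely iff-1, iff-2 and ife-5, and eif-2D was lower. Of 21 vacuolar ATPase genes 3 were higher and 0 lower (in these and in the histone genes 0 were lower at an unadjusted p under 0.05 or by DESeq2), and of 35 genes of the spliceosome and SR proteins snu-13, snr-6 and snr-7 were higher and sfa-1 and sart-3 lower. With length offsets 2 translation factors and 0 genes of the vacuolar ATPase and of the spliceosome and SR proteins were higher, and without replicate 1 the higher calls were 12 translation factors, 6 vacuolar ATPase genes and 5 genes of the spliceosome and SR proteins. In the SART-3 IP 26 translation factors were higher and 1 lower, and 11 vacuolar ATPase genes were higher and 2 lower. There 14 genes of the spliceosome and SR proteins were higher and 3 lower, and 8 of 18 histone genes were higher and 0 lower.

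The genes of developmental timing moved in both directions. Of 15 heterochronic genes 12 were tested, and lin-29, lin-41 and mab-10 were higher while nhl-2, sea-2, blmp-1 and apl-1 were lower, with a median of 0.04. Among all genes 5.31% were higher and 3.15% lower, and the 3 higher genes here had been selected as LIN-41-bound from these libraries. In the SART-3 IP 0 were higher and 6 lower of 14 (median -0.56), nhl-2 (-2.45) among them. Length offsets left 3 higher and 2 lower in the LIN-41 IP. sea-2 had a log2 of -1.89, and apl-1, which encodes the worm's amyloid precursor-like protein, had -0.87. blmp-1, for a zinc finger transcription factor of developmental timing, had 18.4, 40.7 and 21.6 CPM in the LIN-41 IPs, against 101, 45.2 and 55.3 CPM in the inputs (log2 -1.16 ± 0.35, adjusted p = 0.045). Its groups did not overlap, but the pair 2 values were close. lin-28 (0.14), lin-42 (0.48), lin-46 (0.02), kin-20 (0.06) and daf-12 (-1.11) did not pass. Among DM domain genes mab-3 and dmd-3 were higher, dmd-7 was lower (-1.37 ± 0.33) and dmd-6 (-0.67) did not pass, so the family did not move together. In the SART-3 IP 0 DM domain genes were higher and 4 lower of 7, dmd-7 (-0.96) among the lower ones. Of the 5 TRIM-NHL genes lin-41 was higher and nhl-2 lower, and nhl-1 (-0.34), nhl-3 (0.33) and ncl-1 (-0.42) did not pass.

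**Figure D5:**
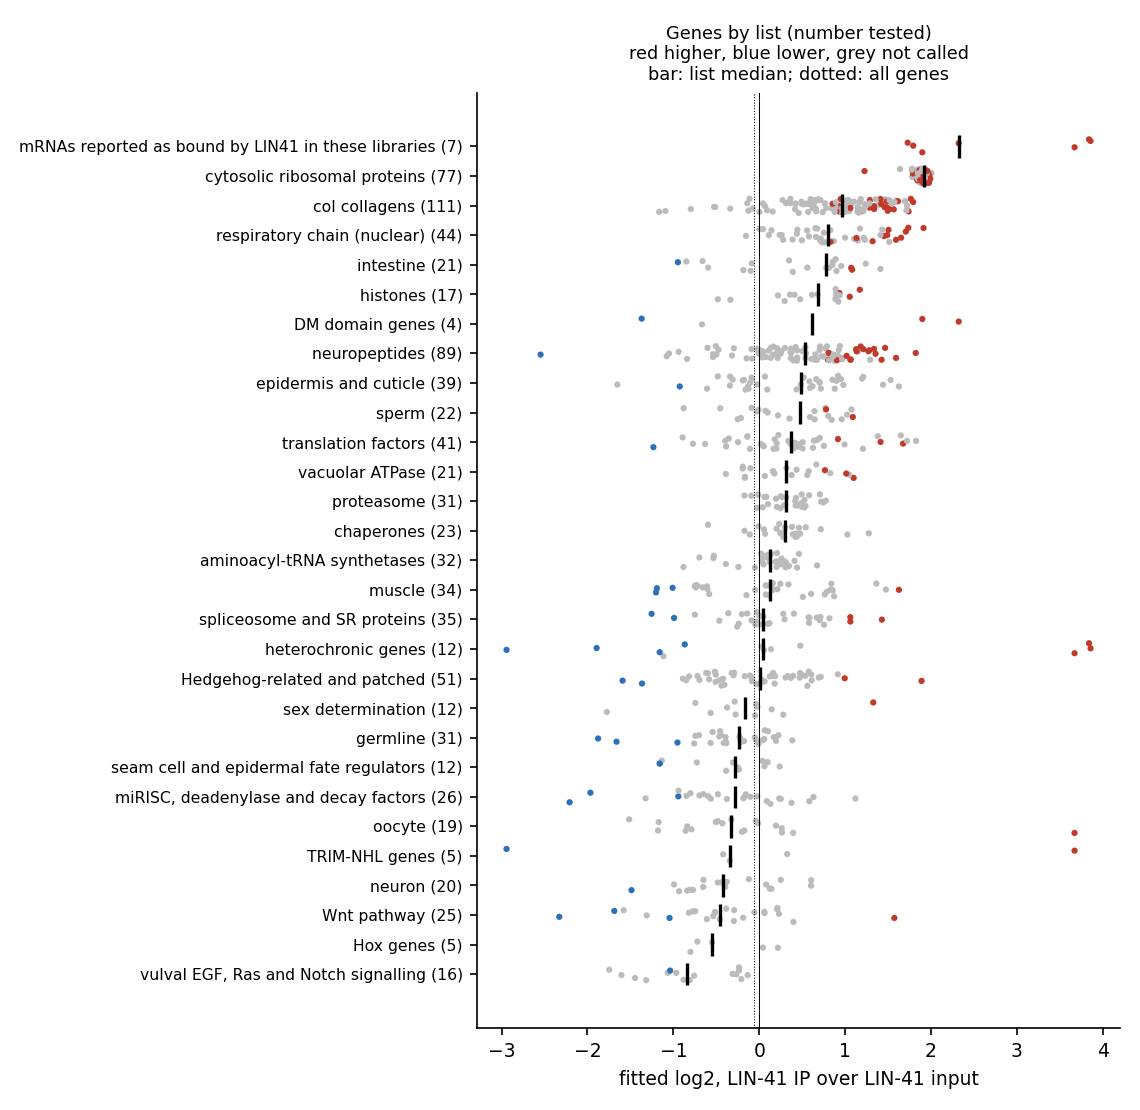
Fitted log2 of LIN-41 IP over LIN-41 input (x axis) for the genes of each list with at least 4 genes tested, ordered by the list's median (bar), with called genes in red (higher) or blue (lower) and the median of all genes dotted. The heterochronic genes split between 3.86 and -2.94, and the 77 ribosomal protein genes lie between 1.23 and 2.0.

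In the Wnt pathway, which also patterns seam cells, 1 of 25 genes was higher (cam-1) and 3 were lower, with a median of -0.46, against 5.31% higher and 3.15% lower among all genes. The SART-3 median was -0.48 with 8 lower of 29, and with length offsets the LIN-41 median was -0.13 with 1 lower. The lower ones are the ligand gene cwn-2 (-2.33 ± 0.71), the Frizzled receptor gene mom-5 (-1.69 ± 0.47) and lit-1 (-1.04 ± 0.28), for a Nemo-like kinase. cwn-2 had only 0, 2 and 1 counts in the LIN-41 IPs, against 53, 11 and 17 counts in the inputs. Of 26 genes of the miRNA effector complex, deadenylation and decay, 0 were higher by edgeR's test (1 at an unadjusted p under 0.05, 1 by DESeq2) and 3 lower, namely ntl-4 (-2.21 ± 0.45), a CCR4-NOT subunit gene, panl-3 (-1.97 ± 0.48), for the PAN3 deadenylase subunit, and the decapping enzyme gene dcap-2 (-0.94 ± 0.29). In the SART-3 IP 3 were higher and 10 lower of 27 (median -0.48), with ntl-4 at -1.34 and panl-3 at -1.31. In sex determination her-1, which encodes the secreted signal for male fate, was the 1 gene called of 12. It had 147, 89.6 and 80.9 CPM in the LIN-41 IPs, against 38.9, 45.2 and 39.9 CPM in the inputs (log2 1.33 ± 0.26), and its SART-3 value was 1.28. Among 16 genes of vulval EGF, Ras and Notch signalling all values were negative (median -0.84) and only ark-1, for a kinase that restrains EGF receptor signalling, was called (-1.04 ± 0.32). With length offsets the median was -0.40 with 0 called, and DESeq2 and limma-voom also called 0 of the 16. The SART-3 median was -0.68, with 7 lower of 18. No Hox gene of 5 tested was called, where 0 had an unadjusted p under 0.05 in edgeR's test and DESeq2 called 0.

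Markers of the tissues in a whole worm were followed in the same way, beside 5.31% higher and 3.15% lower among all genes. Several of these counts depended on replicate 1, without which 1203 and 645 genes were called in all. The SART-3 IP had calls in these lists too, beside 19.2% higher and 15.3% lower among all its genes. They were 16 higher and 9 lower of 34 muscle genes, 3 and 10 of 23 neuronal genes, and 1 and 7 of 32 germline genes. For sperm they were 8 and 1 of 17, for the intestine 14 and 5 of 21, and for epidermis and cuticle 17 and 3 of 42. Of 34 muscle genes mlc-2, a myosin light chain gene, was higher (1.63 ± 0.39) and tnt-4, unc-22 and pat-3 were lower, and without replicate 1 there were 6 higher and 9 lower. Of 20 neuronal genes unc-10 was lower (-1.49 ± 0.36). Germline genes had 0 higher by edgeR's test, with 0 at an unadjusted p under 0.05 and 0 by DESeq2, and 3 lower of 31, among them gld-1, the gene of a germline translational repressor, with 27.6, 8.14 and 10.8 CPM in the LIN-41 IPs, against 55.4, 52.7 and 48.1 CPM in the inputs (log2 -1.88 ± 0.41). Of 19 oocyte genes lin-41 alone was called, and oma-1 (-1.51, adjusted p = 0.080) did not pass. Sperm genes had 2 higher (msp-64 and ssp-10) and 0 lower of 22, where 1 was lower at an unadjusted p under 0.05. DESeq2 called 0 sperm genes in either direction, whereas 8 were higher without replicate 1. The call of ssp-10 (0.78, adjusted p = 0.0497) was lost under 12 of 19 alternatives. The intestine had the metallothionein genes mtl-1 and mtl-2 higher and the esterase gene ges-1 lower, of 21 genes. mtl-1 was high in replicate 1 alone, with 189, 37.99 and 18.9 CPM in the LIN-41 IPs, against 56.3, 29.05 and 16.3 CPM in the inputs, and without replicate 1 its log2 was 0.31 in place of 1.07 (adjusted p = 0.67). The intestine list had 0 calls with length offsets, and its median was 0.78, or 0.33 without replicate 1. The yolk protein gene vit-2 had 78.3, 29.9 and 32.4 CPM in the LIN-41 IPs, against 2.29, 8.61 and 16.3 CPM in the inputs, on 11 to 17 counts per IP (log2 2.45 ± 0.54), and its SART-3 value was 2.1. Of 39 genes of epidermis and cuticle 23 had positive values (median 0.48), and bli-1 alone was called, as lower (-0.93 ± 0.26). DESeq2 called 5 of them higher and 0 lower, and without replicate 1 there were 10 higher and 3 lower. Of 12 seam cell and epidermal fate regulators blmp-1 alone was called, and of 51 Hedgehog-related and patched genes grl-20 and grd-5 were higher and ptr-24 and qua-1 lower. grl-20 was high in replicate 1 alone, with 778, 10.9 and 24.3 CPM in the LIN-41 IPs, against 145, 6.45 and 13.6 CPM in the inputs.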

How the data were processed

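The authors sequenced 50-base single-end reads from stranded mRNA libraries, kept 1 read for each 5′ end, and aligned and counted reads over WormBase exons with QuasR. The deposited counts are whole numbers per gene and not normalized. The gene lengths deposited beside them (unit: bp) are multiples of 3 in 96.6% of genes and are called coding lengths. The genome build is ce6 in the paper and ce10 in the labels. Whether counting used strand is not given in the sources used here, so reads of overlapping antisense genes cannot be told apart (199 called genes overlap an exon of 1). Symbols came from the WBcel235 annotation, which matched 18778 of 20182 IDs (93.0%). Its coordinates are in that build and may differ from those of the counting.

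The tests used edgeR 4.0.16 in R 4.3.3 (TMM factors, quasi-likelihood F test, Benjamini-Hochberg adjustment over all genes tested, two-sided, threshold 0.05). The study's methods name edgeR. The fit of 6 libraries had terms for replicate number and library type. The difference between LIN-41 and SART-3 was the interaction in a fit of 12 libraries, where both proteins shared the replicate term. SE is the absolute log2 divided by the square root of F. Values per pair are log2 CPM differences with a prior count of 2, and fold changes are on the fitted log2 scale. Pairs were taken by replicate number. Deviations from the group mean correlated between IP and input of the same number (r = 0.438, 0.266 and 0.536 across 5383 genes). Between different numbers r was -0.439 to 0.219. The highest of these, IP 3 with input 2, was near the value of pair 2, so the correlations do not settle the pairing of replicates 2 and 3. The replicates are independent experiments per the paper. On simulated counts for the LIN-41 comparison over 11233 genes the test called 7 of 11033 unchanged genes, and 40.9%, 89.6% and 97.0% of genes changed by a log2 of 1, 2 and 4. The counts were drawn at the trended dispersion, without IP-to-input effects that differ between replicates and without a relation to length. The rates belong to that setting and may not hold for the libraries themselves.

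The members and gene lists were chosen with earlier results of these data known. Genes named are the 15 of lowest p and the 10 of largest change per direction with 1 sign in 3 of 3 pairs, the 7 mRNAs selected as LIN-41-bound and sart-3, up to 4 called members per list and the LIN-41-specific genes. Others, such as list members that did not pass, were named after their values were seen. Of 30 lists, the mitochondrial genome list had no member tested. Alternatives were the likelihood ratio test, DESeq2 1.42.0, limma-voom (limma 3.58.1), other scalings and filters, a ceiling correction, thinned counts, length offsets, 1 fit of 12 libraries, and leaving out each replicate, which under the block is the same as leaving out either library of a pair.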

Additional observations from a re-analysis of the deposited data

Results flagged for a closer look

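The ratio of IP to input differed between LIN-41 and SART-3 for 5 genes by a test of the difference itself, the interaction term in edgeR's quasi-likelihood fit of 12 libraries. The log2 differences, LIN-41 minus SART-3, were 4.34 for mab-10, 4.06 for lin-41, 4.05 for lin-29, 3.14 for F18C5.10 and 2.34 for mab-3, positive in 3 of 3 replicates for each. The adjusted p were 0.0014, 0.021, 0.014, 0.014 and 0.0012 in that order. All 5 are among the 7 mRNAs that the study selected from these same libraries with a test of this interaction. Neither the calls nor their signs are therefore independent evidence. With 3 libraries per group, single outlying libraries were not tested.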

How the results depend on the processing

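The numbers of genes higher and lower in the LIN-41 IP, 597 and 354, changed by over 1.5 times with the likelihood ratio test (1029 and 735), DESeq2 (35 lower), total counts only (351 and 1099, where the median of all genes was -0.40), no filter on low counts (711 lower), 1 fit of all 12 libraries (1072 and 654) and an adjusted p under 0.1 (943 and 774). Leaving out 1 replicate gave 109 to 1203 higher and 51 to 645 lower. Without the replicate block, which the pairing of the lysates calls for, they were 27 and 0. limma-voom gave 796 and 252. For SART-3 the main numbers were 2278 and 1818, and they were 1261 and 448 with DESeq2, 1211 and 3813 with total counts only, 1143 and 485 without the replicate block, 1297 and 902 in 1 fit of all 12 libraries, 1051 lower with length offsets, and 1391 to 2151 higher and 917 to 1857 lower without 1 replicate. The 5 genes specific to LIN-41 were 3 with limma-voom or total counts only, 9 with no filter or length offsets, 1 with at least 10 counts in every library, 0 without the replicate block and 0 to 9 without 1 replicate. They were 7 with the likelihood ratio test or a block per lysate, and 4 with DESeq2, 3 of them among the 5. The causes were not tested. Of 108 genes named, none changed direction under any alternative. DESeq2 lost 33 calls, length offsets 36, the ceiling correction 12, thinned counts 16, the fit without the replicate block 89, and leaving out replicate 1, 2 or 3 lost 9, 44 or 68. Of the 354 lower genes, 75 had at most 10 counts summed over the 3 LIN-41 IPs, and thinned counts called 283 lower genes, 203 of them among the 354.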
